A study of Mus musculus with 35 samples.

Results

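The regions described here are the 1862 open chromatin regions of mouse embryonic fibroblasts (MEFs) that overlapped a row of the H3K27me3 table by at least 1 bp and no row of the H3K4me3 table. They were found among the 35931 rows of the ATAC-seq table on chromosomes 1 to 19, of 36431 rows in all, and made up 5.18% of the autosomal rows. Of the others, 22978 regions overlapped neither table, 9581 overlapped the H3K4me3 table only and 1510 overlapped both. The regions are called H3K27me3-table regions below, because single libraries went partly against the name "H3K27me3 only", as shown in the first comparison.

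ATAC-seq uses the Tn5 transposase to cut and tag accessible DNA, and its signal marks open chromatin. H3K27me3 is written by the Polycomb repressive complex PRC2, whose catalytic subunit is EZH2, and it covers silenced developmental genes, often as broad domains. H3K4me3 marks the promoters of active or poised genes, and promoters that carry both marks are known as bivalent. An open region inside an H3K27me3 domain but away from H3K4me3 is therefore accessible DNA in a Polycomb-covered neighbourhood, and such places are often distal to promoters.

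The study asked how small molecules change the state of MEFs, primary cells from mouse embryos, at day 4 of chemical reprogramming towards extraembryonic endoderm-like cells. All samples were MEFs at day 4. The full cocktail C6FAE, whose state the study calls CaMP, held CHIR99021 (C, a GSK3 inhibitor), RepSox (6, an inhibitor of the TGF-beta receptor ALK5), Forskolin (F, which raises cAMP), AM580 (A, a retinoic acid receptor agonist) and EPZ004777 (E, an inhibitor of the H3K79 methyltransferase DOT1L). The cocktails C6AE, 6FAE and CFAE each lacked one of the first 3 named compounds, AE lacked all of those, and Basal and Control are given here as labelled, since their composition is not spelled out in the sources used here.

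ATAC-seq had 2 libraries for each of the 7 treatments, and the RPKM table held 1 column per treatment, so no replicate error can be attached to an RPKM value. H3K27me3 and H3K4me3 ChIP-seq had 1 library each for the 6 treatments other than Control. Another 3 ChIP-seq samples, with a control title but the C6FAE treatment label, were put in no group, and the H3K27me3 one among them is called the titled control. ATAC-seq libraries held 3346418 to 8764791 tags, and labelled H3K27me3 libraries held 633980 (6FAE) to 6392309 (C6AE) tags. The study's methods call the 2 Control and the 2 CaMP ATAC-seq libraries biological replicates. For the other treatments the sources used here do not say whether the libraries came from separate cultures, so their spread may be technical. In these bulk samples fewer open cells and less opening per cell cannot be told apart.

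The lists of regions did not draw evenly on the libraries. Of the 1862 regions, starts matched a peak start of a Forskolin-treated ATAC-seq library 1089 times and of another ATAC-seq library 819 times, with 361 matches to C6FAE replicate 1 and 78 and 48 to the Control libraries. The H3K27me3 rows went the other way. Their starts matched a peak of C6AE 617 times, of AE 454 times and of Basal 273 times, but of 6FAE only 82 times, of CFAE 35 times and of C6FAE 15 times. The H3K27me3 rows behind the choice of regions thus came mostly from libraries without Forskolin. The open regions came more often from libraries with it. The part these origins played in the peak shares and in the ATAC and H3K27me3 levels below was not tested.

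In single libraries, the share of the regions that carried an H3K27me3 peak ran from 33.7% to 68.4% in the cells without Forskolin, and a minority also carried H3K4me3. An enriched peak, here one with a -log10 q of at least 1.3, was found for H3K27me3 in 68.4% of the regions in C6AE, 49.8% in AE and 33.7% in Basal. In the 3 Forskolin libraries the shares were 0.376% (C6FAE), 0.430% (CFAE) and 0.161% (6FAE). These libraries listed few enriched H3K27me3 peaks anywhere, with 82, 136 and 74 in the whole genome against 4115 to 17766 in the other 3 labelled libraries. The 6FAE library was the shallowest, with 633980 tags, and CFAE held 3294779 and C6FAE 5919506. Basal held 2876197 tags, AE 5537372 and C6AE 6392309. The part of depth in these counts was not tested, and each treatment had 1 library. In the whole set, 331 regions (17.8%) had an enriched H3K27me3 peak in no labelled library, 714 in 1 library, 326 in 2 and 491 in 3 or more. Regions in neither table had one in at most 0.300% of cases in a labelled library, in C6AE. The H3K27me3 rows had started mostly at peaks of the libraries without Forskolin. The contrasts between classes and between libraries with and without Forskolin are therefore not independent of how the regions were chosen.

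**Figure D1:**
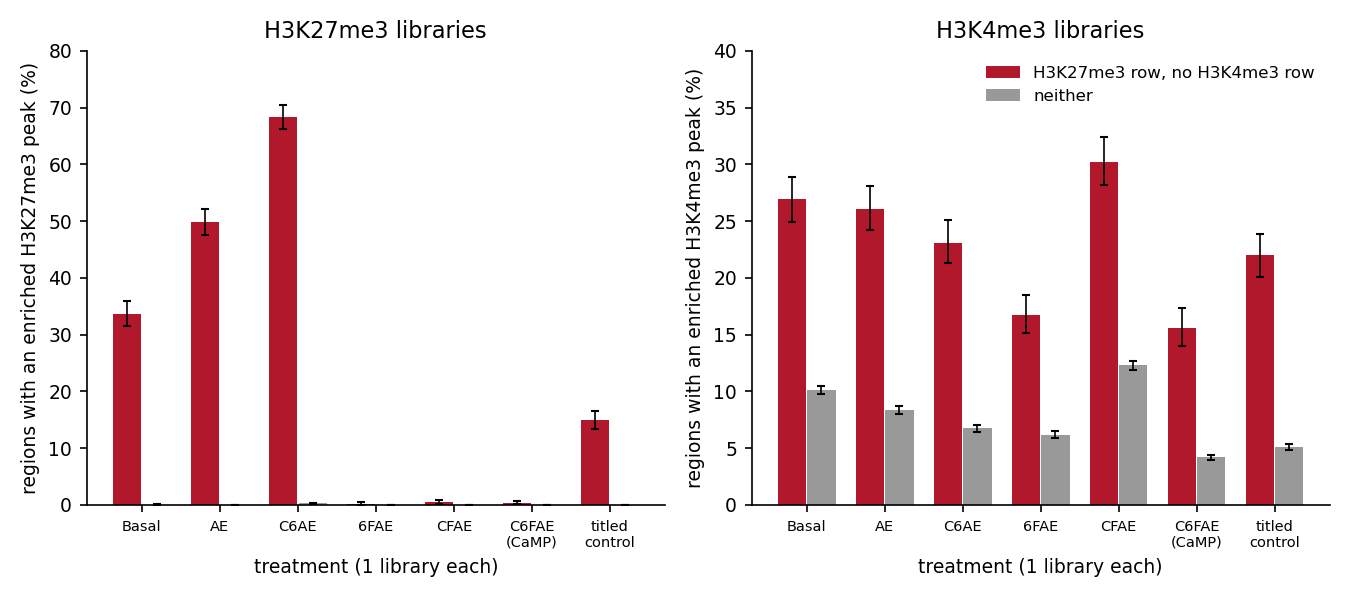
Percent of open regions that overlapped an enriched peak (-log10 q of at least 1.3) of H3K27me3 (left) or H3K4me3 (right) in each ChIP-seq library, for the 1862 H3K27me3-table regions (red) and the 22978 regions in neither table (grey). Bars start at 0 and error bars are Wilson intervals at 95%, which cover counting error only. H3K27me3 peaks reached 33.7% to 68.4% of the red regions without Forskolin and under 1% with it. H3K4me3 peaks reached 15.6% to 30.2% in the labelled libraries. The rows behind the red regions started mostly at peaks of libraries without Forskolin, so the left panel is not independent of that choice.

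H3K4me3 peaks were also present. An enriched H3K4me3 peak overlapped 30.2% of the H3K27me3-table regions in CFAE, 26.9% in Basal, 26.1% in AE, 23.1% in C6AE, 16.7% in 6FAE and 15.6% in C6FAE. The corresponding shares for regions in neither table were 12.3%, 10.1%, 8.35%, 6.74%, 6.20% and 4.18%, lower in each of the 6 labelled libraries. Of the 1862 regions, 1087 (58.4%) had no enriched H3K4me3 peak in any labelled library, 219 had one in 1 library, 556 in 2 or more and 143 in all 6. Peaks of both marks were found at 661 regions (35.5%). The strict meaning of the name, an enriched H3K27me3 peak in at least 1 labelled library and no enriched H3K4me3 peak in any, held for 870 regions (46.7%). Results are therefore also given for these 870 where they differ. The classes they are set against were not filtered in this way.

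The regions lay in broad domains of H3K27me3. They fell in 1555 rows of the H3K27me3 table, 8.47% of the 18363 autosomal rows. The median length of those rows was 10846 bp (quartiles 4821 and 24279 bp), against 1664 bp (856 and 4390 bp) for the 15610 rows that held no open region and 8334 bp for the 1418 rows of regions in both tables. Rows of at least 10000 bp were 53.6% of those with an H3K27me3-table region and 8.94% of those without any open region. A longer row can meet an open region more often by its length alone, and no test was made of that. The open regions themselves were short, with a median of 1023 bp (quartiles 712 and 1776 bp), close to the 1094 bp of regions in neither table and below the 2456 bp of regions in both.

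Most of the regions were inside a domain and not at its border. The H3K27me3 row covered 1252 regions (67.2%) completely, and in all 1453 (78.0%) had at least 50% of their length covered, whereas 93 (4.99%) were covered over less than 10% of their length. The rule has a threshold at 1 bp of overlap. The 46 regions with at most 50 bp of overlap had a median ATAC level of 15.5 RPKM in C6FAE and 10.8 in Control, and the 33 regions in neither table that lay within 50 bp of a row had 15.5 and 11.2.

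A domain usually held a single one of the regions. There were 1333 rows with 1 region, 163 with 2 and 59 with 3 or more, and at most 7 regions shared a row. One of the 2 rows with 7 was on chromosome 2 (mm9 chr2:164909327-165026952, 117626 bp), where H3K27me3 RPKM was 11.2 in AE, 11.0 in Basal, 10.9 in C6AE, 6.42 in 6FAE, 4.93 in CFAE and 4.88 in C6FAE. The other (chr5:139964235-140166609, 202375 bp) had 9.62, 9.75, 8.57, 8.21, 4.75 and 3.98 RPKM in the same order. In both rows the 3 libraries without Forskolin were above the 3 with it. Another row of 132247 bp with 5 regions (chr2:74479444-74611690) had 12.7, 15.2, 6.84, 16.1, 6.88 and 5.71 RPKM, and there the shallow 6FAE library was the highest, so that the groups overlapped.

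The regions were nearer to H3K4me3 than unmarked open chromatin was, although none touched an H3K4me3 row. The median distance to the nearest H3K4me3 row was 31118 bp, against 52819 bp for regions in neither table. A row of the H3K4me3 table lay within 10000 bp of 434 regions (23.3%) and of 13.6% of the regions in neither table. Per chromosome, H3K27me3-table regions made up between 2.5% of the open regions (chromosome 3, 47 of 1880) and 7.23% (chromosome 4, 168 of 2325).

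The H3K27me3-table regions were the least open of the classes in nearly every treatment. Their median ATAC level was 14.1 RPKM in C6FAE (quartiles 8.84 and 19.4), 13.9 in CFAE, 11.9 in 6FAE, 11.6 in Basal, 11.3 in AE, 10.5 in C6AE and 8.98 in Control (quartiles 5.98 and 12.7). RPKM scales the reads of a region to its length and to the mapped reads of the library. C6FAE and CFAE were the highest columns and Control the lowest, and neighbours in this order cannot be tested because each column is a merge. Regions in neither table followed with 14.9 RPKM in C6FAE, 16.2 in CFAE, 12.7 in 6FAE, 12.8 in Basal, 13.8 in AE, 10.5 in C6AE and 9.41 in Control. Regions in both tables had 21.3 RPKM in C6FAE and 12.1 in Control, and regions with H3K4me3 only had 23.4 and 17.2.

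**Figure D2:**
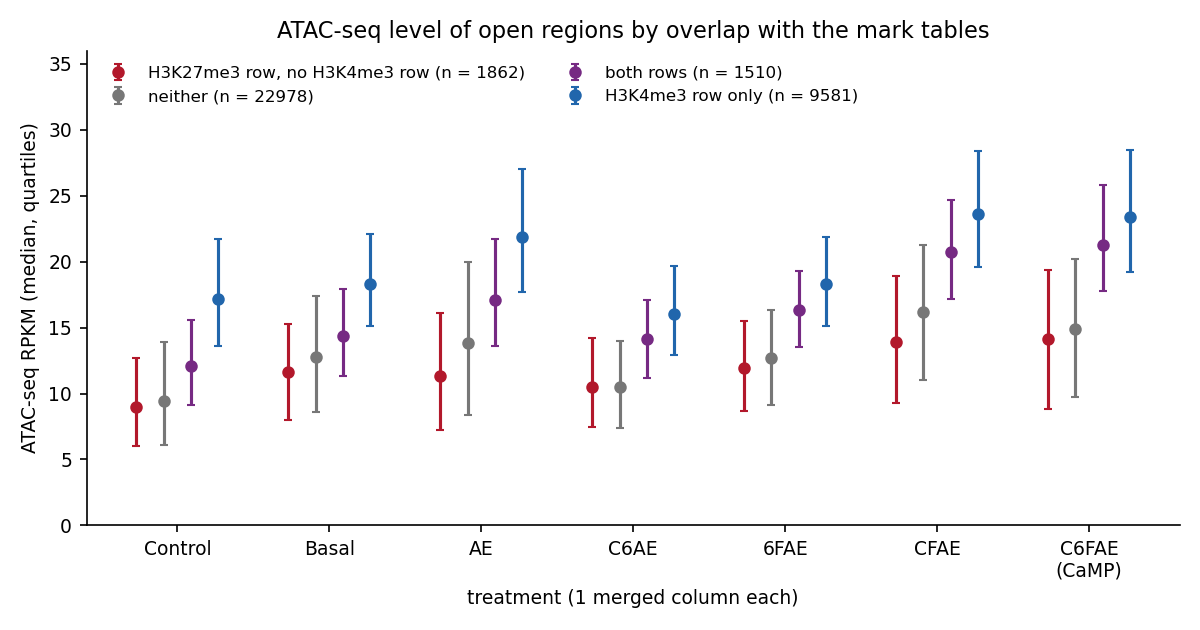
Median ATAC-seq level (points, RPKM on a linear axis) and quartiles (bars) of the open regions in each treatment, by overlap with the H3K27me3 and H3K4me3 tables. The red points of the 1862 H3K27me3-table regions lie at 8.98 (Control) to 14.1 RPKM (C6FAE), below the grey points of regions in neither table except in C6AE, where they coincide, and below the points of both H3K4me3 classes in all 7 columns.

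The differences were tested over the 7 treatment columns as medians of log2(RPKM + 1), with an exact two-sided sign-flip test. The H3K27me3-table regions differed from regions in neither table by -0.12 ± 0.09 (mean ± SD, n = 7, exact p = 0.0312, adjusted over 3 comparisons 0.0312), with 6 of 7 columns below 0. The exception was C6AE, at 0.01, and the greatest difference was in AE, at -0.27. This difference was not past the threshold once the 25% of regions with the lowest mean RPKM were left out (-0.06, adjusted exact p = 0.172). Against regions in both tables the difference was -0.45 ± 0.11 (exact p = 0.0156, adjusted 0.0234), and against regions with H3K4me3 only it was -0.70 ± 0.14 (exact p = 0.0156, adjusted 0.0234), with all 7 columns below 0 in both cases. For the 870 regions with the strict marks the difference from regions in neither table was -0.31 (adjusted exact p = 0.0156). The strict filter was put on the H3K27me3-table regions only. It left out those with an enriched H3K4me3 peak, whose median was 17.5 RPKM in C6FAE, against 11.2 for those with none. Regions in neither table kept theirs, so this difference and its p are not independent of the filter. The columns share the list of regions, and a p of 0.0156 is the smallest that 7 columns can give.

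Single ATAC-seq libraries, compared after the RPKM results were seen, gave the same order of classes. Among the 20000 strongest peaks of a library, one overlapped 26.0% and 15.7% of the H3K27me3-table regions in the 2 C6FAE libraries, 16.8% and 23.1% in CFAE, 19.5% and 20.5% in Basal, 16.6% and 13.4% in AE, 12.5% and 14.2% in C6AE, 9.61% and 23.5% in 6FAE and 13.3% and 10.2% in Control. Both C6FAE libraries were above both Control libraries, and the 2 libraries of 6FAE spanned nearly the whole range of the others. Averaged per treatment, the share was below that of regions in neither table by 6.32 percentage points (SD 3.17, n = 7, exact sign-flip p = 0.0156, two-sided), with 13 of 14 libraries below. The exception was C6AE replicate 2, the shallowest ATAC-seq library, at 3.27 points above. The mean differences from regions in both tables and from regions with H3K4me3 only were -25.6 and -49.6 points. Those regions were longer, with medians of 2456 and 2952 bp against 1023 bp. A longer region can meet a strong peak more often by its length alone, and the part of length was not tested. Among regions of 1000 to 2000 bp the differences in log2(RPKM + 1) were -0.35 and -0.62, against -0.45 and -0.70 at all lengths.

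**Figure D3:**
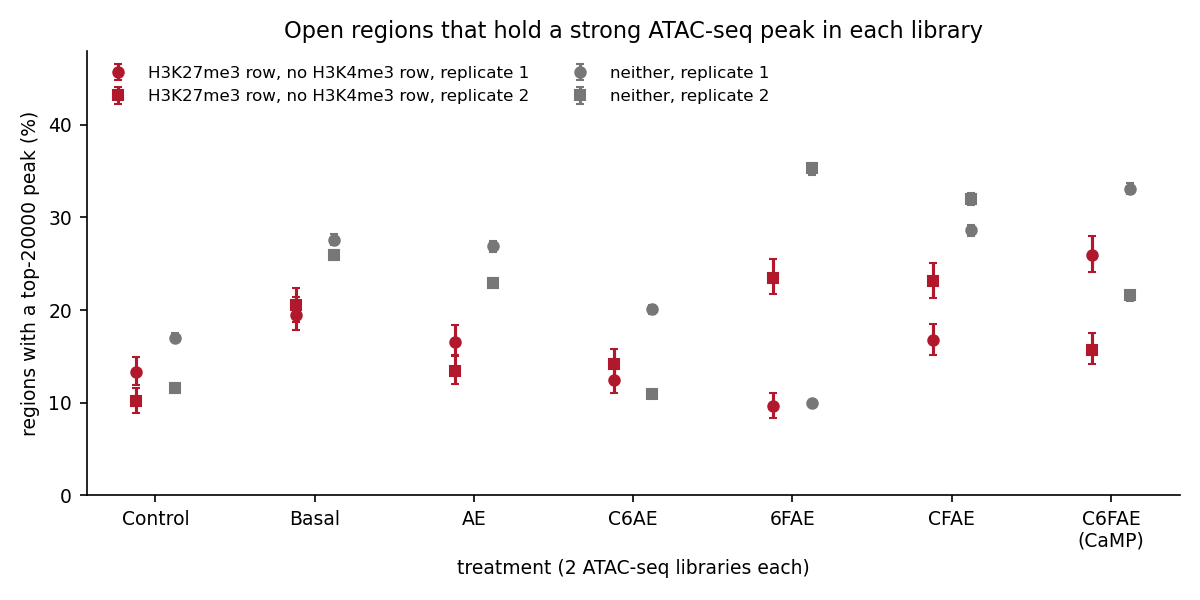
Percent of regions that overlapped one of the 20000 strongest ATAC-seq peaks of a library, for the H3K27me3-table regions (red) and regions in neither table (grey), with 2 libraries per treatment (circle, replicate 1 and square, replicate 2). Error bars are Wilson intervals at 95% and cover counting error only. The red points range from 9.61% to 26.0%, and both extremes lie in Forskolin treatments.

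Strong peaks at these regions were seldom shared between libraries. A strong peak was present in 0 of 14 libraries for 120 regions (6.44%), in 7 or more for 128 (6.87%) and in all 14 for 7 (0.376%), with a median of 1 library. Of the regions in neither table, 13.8% had one in 7 or more libraries, and 72.5% of the longer regions with H3K4me3 only did. Of the 484 H3K27me3-table regions with a strong peak in C6FAE replicate 1 and the 293 in replicate 2, 162 were shared, which is 33.5% and 55.3% of each list. Over all open regions the shared part was 59.4% and 80.2%. The 2 Control libraries shared 55 regions, 22.2% of 248 and 29.1% of 189. Over all open regions the 2 Control libraries shared 51.7% and 64.3% of their lists. The regions of the class have lower levels than all regions, and the part of this in the smaller overlap was not tested.

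The most open of the regions were exceptions, with like levels in Control and C6FAE. The highest was chr9:3009247-3009906 (660 bp), at the start of the chromosome's assembled sequence, with 230 RPKM in Control, 262 in Basal, 236 in AE, 265 in C6AE, 212 in 6FAE, 193 in CFAE and 188 in C6FAE. Its H3K27me3 levels were also high in every library, from 9.30 RPKM in C6AE to 28.3 in C6FAE, yet it held a strong ATAC-seq peak in 1 library only. Next came chr4:3006059-3014165 with 69.5 to 95 RPKM and chr1:26741971-26745951 with 43.5 to 60.6 RPKM, both with a strong peak in all 14 libraries. For chr4:3006059-3014165 Control had 72.8 and C6FAE 69.5 RPKM, and for chr1:26741971-26745951 they had 43.5 and 47.2. The next 2, chr7:12595173-12596526 and chr4:3154765-3156166, had 27 and 25.2 RPKM in Control and 34.6 and 26.4 in C6FAE. At the other end, 320 regions (17.2%) were under 5 RPKM in Control and 148 (7.95%) in C6FAE, against 12.1% and 4.65% of all regions.

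H3K27me3 was lower in the 3 libraries with Forskolin than in the 3 without it, at these regions as over all rows of the H3K27me3 table. The median H3K27me3 level at the 1862 regions was 6.54 RPKM in Basal (quartiles 4.64 and 8.84), 6.30 in AE and 6.23 in C6AE. It was 4.37 in 6FAE, 3.56 in CFAE and 3.21 in C6FAE (quartiles 2.53 and 4.14). The groups did not overlap. The titled control had 6.45 RPKM and entered no comparison. Each level is that of the whole H3K27me3 row around the open region, so several regions of a row share 1 value. Starts of all autosomal rows matched peaks of C6AE 7511 times, of Basal 4355 and of AE 2241 times. Matches to 6FAE were 2711, to CFAE 1005 and to C6FAE 168. Levels outside the rows were not measured.

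**Figure D4:**
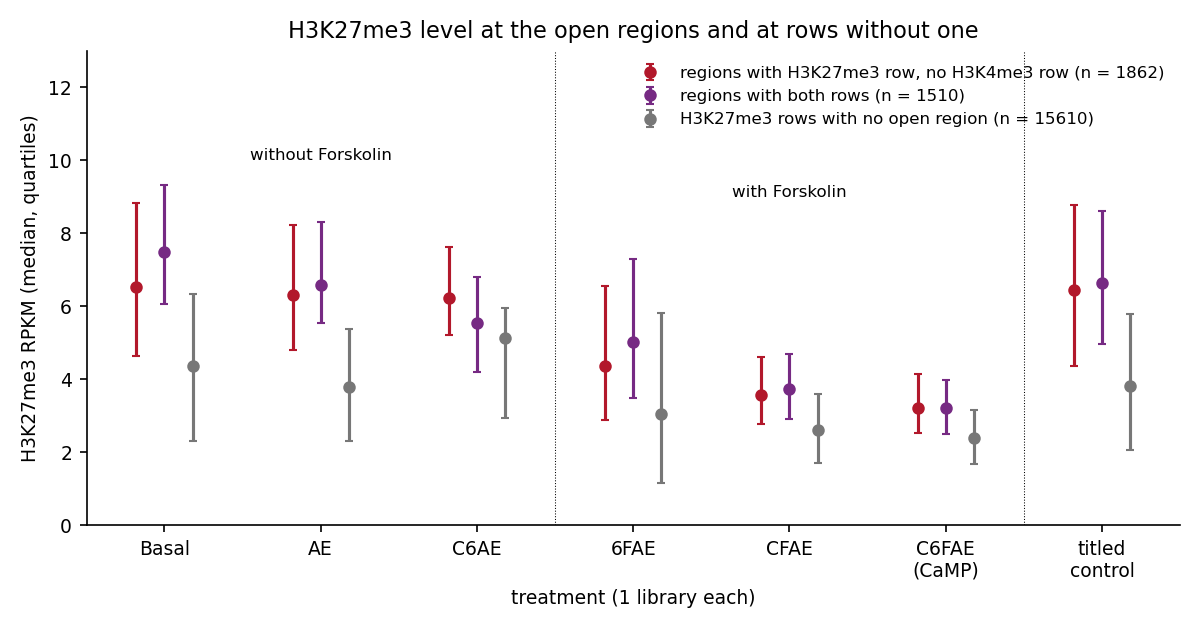
Median H3K27me3 level (points, RPKM on a linear axis) and quartiles (bars) in the 7 H3K27me3 libraries, for the H3K27me3-table regions (red), regions in both tables (purple) and rows of the H3K27me3 table that held no open region (grey). Red medians are 6.23 to 6.54 RPKM in the 3 libraries without Forskolin and 3.21 to 4.37 in the 3 with it, and the other classes are also lower with Forskolin.

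On the log2(RPKM + 1) scale the medians were 2.23 ± 0.18 with Forskolin and 2.88 ± 0.03 without it (mean ± SD, n = 3 each), a difference of -0.65. An exact two-sided permutation test gave p = 0.10, the smallest that 3 against 3 libraries allow. The rows had entered mainly through peaks of libraries without Forskolin, so this p is not independent of how the rows were chosen. The difference was -0.60 for regions in both tables and -0.56 for all autosomal H3K27me3 rows, each with exact p = 0.10. Relative to all rows, the H3K27me3-table regions differed by -0.09 (0.28 ± 0.02 with Forskolin and 0.37 ± 0.14 without, n = 3 each, exact permutation p = 0.400). A difference particular to these regions was therefore not shown. Row by row, the 3 Forskolin libraries were all below the 3 others in 920 of the 1555 rows (59.2%), where the share over all autosomal rows was 37.6%, and all above in 7 (0.450%), where it was 1.94%. The rows of the regions were longer, and most started at peaks of libraries without Forskolin, as given above. Their part in the 59.2% was not tested.

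Among the cocktails that lack a single compound, C6AE stood furthest above C6FAE, with 1 library each. C6FAE against C6AE, which lacks Forskolin, had a median difference of -0.78 over the 1555 rows, and 402 rows (25.9%) were at least 2-fold lower on the log2(RPKM + 1) scale, equal to the 25.9% of all rows, and 6 (0.386%, all rows 1.56%) were higher. Against 6FAE, which lacks CHIR99021, 220 rows (14.1%) were at least 2-fold lower and 102 (6.56%) higher, where all rows had 23.5% and 18.2%. Against CFAE, which lacks RepSox, 19 rows (1.22%) were lower and 17 (1.09%) higher, where all rows had 6.23% and 4.41%. C6FAE was lower than AE in 551 rows (35.4%, all rows 23.4%) and higher in 20 (1.29%, all rows 3.54%), and lower than Basal in 622 (40%, all rows 33.0%) and higher in 36 (2.32%, all rows 5.35%). CFAE was lower than Basal in 407 rows (26.2%, all rows 26.9%) and higher in 37 (2.38%, all rows 6.90%). The shallow 6FAE library was lower than Basal in 260 rows (16.7%, all rows 29.1%) and higher in 75 (4.82%, all rows 16.2%). C6AE, without Forskolin, was higher than AE in 66 rows (4.24%, all rows 9.30%) and lower in 35 (2.25%, all rows 3.26%), and higher than Basal in 102 (6.56%, all rows 13.2%) and lower in 87 (5.59%, all rows 10.4%). AE against Basal differed little, with a median of -0.03, 24 rows (1.54%, all rows 7.67%) lower and 17 (1.09%, all rows 4.36%) higher. These comparisons share libraries and are not independent. Most of the 2-fold differences between Forskolin and other libraries went down, while those among libraries without Forskolin went both ways. The rows had entered mainly through peaks of libraries without Forskolin, so this direction is not independent of how they were chosen. At the 1862 regions the Forskolin difference of -0.65 became -0.09 with columns centred on their medians.

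H3K27me3 did not differ detectably between the H3K27me3-table regions and the regions in both tables. The difference of medians was -0.05 ± 0.12 (log2, n = 6 libraries, exact sign-flip p = 0.281, two-sided), from -0.17 in Basal to 0.15 in C6AE, and 5 of 6 were below 0. Levels in C6AE were 6.23 RPKM at the H3K27me3-table regions and 5.53 at those in both tables, and in Basal they were 6.54 and 7.50.

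The regions with the most H3K27me3 kept to this split in 1 of 5 cases, since 6FAE or, at chr9:3009247-3009906, C6FAE was high in the others. After chr9:3009247-3009906, the highest mean over the 6 libraries was at chr10:126974711-126975410, with 19.3 RPKM in Basal, 17.9 in AE, 14.6 in C6AE, 16.4 in 6FAE, 9.37 in CFAE and 7.15 in C6FAE. At chr9:62998966-62999581 the values were 22.3, 17.1, 12.5, 17.1, 8.42 and 6.87 RPKM in the same order. In both, C6FAE and CFAE were lowest and 6FAE fell among the libraries without Forskolin. The region chr2:105515018-105517090 (2073 bp, wholly inside a row of 49647 bp) had 19.1, 17.2, 11.2, 19.6, 9.10 and 7.27 RPKM of H3K27me3. Its ATAC level was 34.4 RPKM in C6FAE, 26.8 in CFAE and 22.5 in 6FAE, above the 12.9 in C6AE, 12.8 in AE, 12.5 in Basal and 8.86 in Control. At chr7:25723667-25724833 H3K27me3 was 20.6 RPKM in Basal and 6.05 in C6FAE, but the ATAC level was 4.69 in Control and 5.60 in C6FAE and highest in C6AE (17.8).

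Against Control, the H3K27me3-table regions were higher in CaMP about as often as open chromatin as a whole. The C6FAE level was at least 2-fold above that of Control at 523 of them (28.1%), where the share over all open regions was 25.1%, and at least 2-fold below at 93 (4.99%), where it was 4.45%. The median change was 0.52 on the log2(RPKM + 1) scale, against 0.50 over all regions and 0.55 over regions in neither table. The counts are therefore near the background and say nothing particular about these regions. Each treatment has 1 merged column, so these are folds between columns with no test. Region starts matched peaks of the C6FAE libraries 361 and 70 times and of the Control libraries 78 and 48 times. The part of this in the shares was not tested. Centring each column on its median changed the split to 10.6% higher and 13.9% lower (all regions 10.3% and 11.2%). Among the 870 regions with the strict marks 24.7% were higher and 7.47% lower.

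The other treatments share the same Control column. CFAE had 513 regions higher (27.6%, all regions 26.8%) and 90 lower (4.83%, all 3.47%), and 6FAE had 337 higher (18.1%, all 15.2%) and 91 lower (4.89%, all 4.31%). Basal had 325 higher (17.5%, all 14.2%) and 89 lower (4.78%, all 3.63%). AE had 308 higher (16.5%, all 18.7%) and 136 lower (7.30%, all 4.48%). C6AE had 311 higher (16.7%, all 10.9%) and 149 lower (8.0%, all 7.55%). C6FAE and CFAE had the most regions above Control, in this class as in all regions.

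**Figure D5:**
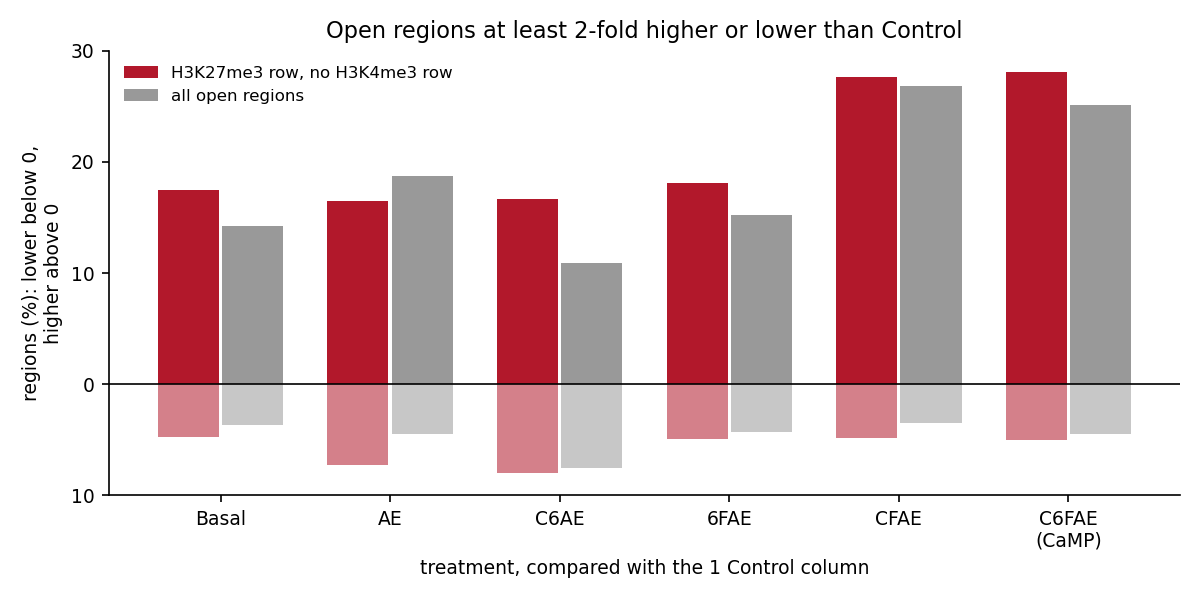
Percent of regions at least 2-fold higher (above 0) or lower (below 0) than in the Control column, on the log2(RPKM + 1) scale, for the 1862 H3K27me3-table regions (red) and all 35931 open regions (grey) in 6 treatments that share 1 Control column. Red and grey bars are close in C6FAE (28.1% and 25.1% higher) and CFAE (27.6% and 26.8%), and the widest gap is in C6AE (16.7% and 10.9%).

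Among the cocktails that lack a single compound, C6AE had the most 2-fold differences from C6FAE. C6FAE was at least 2-fold above C6AE at 344 regions (18.5%, all regions 18.4%) and below it at 141 (7.57%, all 3.68%). Against 6FAE, 180 regions (9.67%, all 8.13%) were higher and 101 (5.42%, all 3.50%) lower. Against CFAE, 113 (6.07%, all 3.72%) were higher and 123 (6.61%, all 5.65%) lower. Against AE, 309 (16.6%, all 12.6%) were higher and 120 (6.44%, all 8.12%) lower. AE was above Basal at 119 regions (6.39%, all 5.91%) and below it at 201 (10.8%, all 5.42%). The class stood further from the background in C6AE against AE, where 215 regions (11.5%, all 5.47%) were higher and 229 (12.3%, all 15.6%) lower, with a median change of -0.13 against -0.37 over all regions. The C6AE column merges the shallowest ATAC-seq library with one of 5581464 tags, and the part of depth in this was not tested.

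Median levels at these regions were higher in the Forskolin columns, by about as much as over all regions. The median of log2(RPKM + 1) was 3.84 ± 0.12 in the 3 Forskolin columns and 3.53 ± 0.15 in the 4 others (mean ± SD, exact permutation p = 0.0571, two-sided, the smallest that 3 against 4 allow). Region starts had matched peaks of Forskolin ATAC-seq libraries 1089 times and of the others 819 times. This p is therefore not independent of how the regions were listed. Relative to the median of all regions the values were -0.31 ± 0.07 and -0.33 ± 0.13, a difference of 0.02 (exact permutation p = 0.857). The 3 Forskolin columns were all above the 4 others at 254 regions (13.6%), and this share was 13.7% over all regions. They were all below at 13 (0.698%), and over all regions 1.17% were.

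Few of the regions called higher in CaMP had a strong peak in both of its libraries. Of the 523 regions, 40% had one in C6FAE replicate 1 and 26.0% in replicate 2, and 2.29% and 1.91% had one in the Control libraries. A strong peak in both C6FAE libraries and neither Control library was present at 55 (10.5%), against 18.7% of all regions called higher. Of the 93 regions called lower, 39.8% and 23.7% had a strong peak in the Control libraries, and 1 (1.08%) had it in both and in neither C6FAE library. Over all regions called lower these shares were 47.5%, 26.0% and 7.94%. Per library, the share of H3K27me3-table regions with a strong peak was 9.13 percentage points higher in C6FAE than in Control (mean of 2 libraries each), against 14.6 points over all open regions and 13.0 over regions in neither table. It was 4.31 points at the 870 regions with the strict marks. For all H3K27me3-table regions it was 4.00 points without C6FAE replicate 1 and 14.3 points without C6FAE replicate 2. With 2 libraries against 2 the smallest possible two-sided exact permutation p is 0.333.

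The largest increases were taken among the 114 regions where both C6FAE libraries and no Control library listed a peak, so that a low Control level follows from the choice. The largest change was at chr2:3252704-3253652 (949 bp), where the ATAC level was 0.290 RPKM in Control, 5.67 in C6AE, 6.45 in Basal, 10.3 in AE, 10.3 in 6FAE, 19.0 in CFAE and 21.8 in C6FAE (log2 difference 4.15). The next were chr9:61083583-61084206, with 33.2 RPKM in C6FAE and 1.75 in Control, and chr7:139679197-139679739, with 22.1 and 1.04. At chr11:70137776-70138559 the AE column (25.7 RPKM) was above C6FAE (9.91), and at chr12:113520155-113520719 the Basal column (17.4) was above C6FAE (10.9). Control had 0.0140 and 0.180 RPKM there. In these last 2 regions Control was the low column and C6FAE was not the highest. Of the 5 regions, each had a strong peak in 1 or 2 of the 14 libraries.

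The largest decreases were taken among the 24 regions that both Control libraries and no C6FAE library listed as a peak. A high Control level therefore follows from the choice. The first was chr11:109188249-109188781 (533 bp), with 30.3 RPKM in Control, 10.6 in 6FAE, 10.5 in Basal, 5.02 in CFAE, 3.81 in AE, 3.55 in C6FAE and 2.85 in C6AE (log2 difference -2.78). Control was the highest column there by far. The others were chr13:34230460-34231196 (20 RPKM in Control and 4.23 in C6FAE), chr5:23732089-23733025 (15.8 and 3.18), chr13:56264740-56265535 (22.4 and 5.05) and chr6:119228987-119229672 (18.2 and 3.99). The chr13:34230460-34231196 region overlapped its H3K27me3 row by 2 bp only.

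H3K27me3 at the regions called lower in CaMP was close to that of the others in C6AE and below it in Basal, AE and 6FAE. The median H3K27me3 level in C6FAE was 3.20 RPKM at the 523 regions called higher, 2.89 at the 93 called lower and 3.23 at the 1246 others. In C6AE it was 6.14, 6.19 and 6.26 RPKM, and in CFAE 3.56, 3.33 and 3.59. The regions called lower had less in the other 3 libraries, with 5.69 RPKM in Basal, 5.72 in AE and 3.69 in 6FAE, against 6.82, 6.64 and 4.57 at those called higher and 6.49, 6.25 and 4.34 at the others. No test was made of these differences. The median log2 difference of H3K27me3 between C6FAE and C6AE was -0.74, -0.84 and -0.82 in the same order. Over all autosomal H3K27me3 rows the median difference was -0.70, so lower H3K27me3 in C6FAE was not particular to any of these sets. These are differences between single libraries. The sets differed in other features. Median lengths were 1077 bp for regions called higher, 740 bp for those called lower and 1041 bp for the others, and an enriched H3K4me3 peak in at least 1 labelled library overlapped 45.3%, 14% and 42.1% of them. The 93 regions called lower were thus the shortest set, with the smallest share of such peaks. Over all open regions, 10.7% were lower in the shortest length group and 0.658% in the longest. The H3K4me3 shares over all open regions called higher or lower were not computed, and the part of length was not tested.

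Within a treatment, the ATAC and H3K27me3 levels of the 1862 regions were nearly unrelated. Spearman's rho across regions was 0.10 in CFAE, 0.09 in C6FAE, 0.05 in 6FAE and AE, 0.00 in C6AE and -0.03 in Basal. For the differences between C6FAE and C6AE it was 0.12, and for those between C6FAE and AE it was -0.10. Regions are not independent replicates, regions of 1 row share an H3K27me3 value, and the marks were measured in separate libraries, so no p is given. Between ATAC columns, rho across the regions was 0.59 for C6FAE and CFAE and 0.28 for C6FAE and Control, against 0.67 and 0.39 over all regions.

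The change in openness was also compared between domains of different length. The regions were split into 4 equal groups by the length of their H3K27me3 row. In the group with the shortest rows (median 2564 bp) the median log2 change from Control to C6FAE was 0.41 and the share at least 2-fold higher was 23.2%. In the following groups the change was 0.50, 0.52 and 0.62, and 26.9%, 29.9% and 32.4% were higher, where the share over all open regions was 25.1%. The median ATAC level in C6FAE was 14.2, 13.6, 14.8 and 13.8 RPKM and in Control 9.72, 9.10, 8.67 and 8.57, so the Control level was lower in each next group and the C6FAE level was not. Longer rows also had a higher mean H3K27me3 level, with medians of 3.77, 4.49, 5.31 and 6.61 RPKM. These are differences between single merged columns, with no test.

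The length of the open region itself went with both the level and the calls of loss. In the shortest of 4 equal groups (median 590 bp) the median ATAC level was 11.0 RPKM in C6FAE and 8.33 in Control, and the share at least 2-fold lower in C6FAE was 8.58%. In the longest (median 2499 bp) the levels were 17.0 and 9.78 RPKM, and 0.215% were lower. Shares at least 2-fold higher were 27.7% and 30.3%. All open regions of the same lengths had 10.7% and 0.658% lower and 32.2% and 17.3% higher, so that losses were also more common at short regions outside the class.

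The regions that separated the Forskolin cocktails from C6AE, AE and Basal most had short H3K27me3 rows in 4 of 5 cases. The largest mean log2 difference, 2.21, was at chr14:110477312-110478076, with 21.3 RPKM in C6FAE, 21.4 in CFAE and 16.8 in 6FAE, against 5.23 in C6AE, 3.81 in Basal and 1.98 in AE. It overlapped a 632 bp H3K27me3 row by 40 bp. That row had 12.2 RPKM of H3K27me3 in the shallow 6FAE library and 0 to 0.675 in the other labelled libraries. At chr13:39006400-39007180 the ATAC levels were 27.8, 29.8 and 15.1 RPKM against 1.35, 8.38 and 8.19, and H3K27me3 was 7.29 RPKM in CFAE, 3.32 in C6FAE and 0 in 6FAE, AE and Basal. Of the next 3 regions, chr3:9930295-9931156 and chr2:134039113-134042584 had H3K27me3 rows of 1251 and 1623 bp. The first row had 11.0 RPKM of H3K27me3 in 6FAE and 1.55 to 3.34 in the other labelled libraries. The second was highest in C6FAE, at 5.57 RPKM. The third region, chr7:31421321-31421900, lay wholly inside a row of 12710 bp. It had 24.0 RPKM of ATAC signal in Control, above its 9.81 in C6FAE. In the opposite direction, the difference was -1.71 at chr19:25652876-25653443, with 18.7 RPKM in AE and 14.1 in Basal, but 4.10 in C6AE, 3.71 in C6FAE, 3.09 in 6FAE and 1.25 in CFAE. At chr5:120768789-120769453, inside a row of 105055 bp, the difference was -1.43, with 29.1 RPKM in AE, 21.6 in Basal and 6.14 in C6FAE. In both, C6AE was nearer to the Forskolin columns than AE and Basal were.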

How the data were processed

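MEFs at day 4 of treatment were assayed by ATAC-seq (14 libraries, 7 treatments) and by ChIP-seq for H3K27me3 and H3K4me3 (6 labelled libraries per mark). According to the submitters' processing notes, Bowtie2, MACS2, deepTools 3.1.0 and the genome build mm9 were used, and the peak list headers name MACS 2.1.2 with a p threshold of 0.05 and tags extended to 250 bp. The authors deposited tables of RPKM per region with 1 column per treatment, the ATAC columns merging 2 libraries. How the rows of these tables were chosen is not given in the sources used here. The deposited peak lists give each library's pileup (signal), the ratio of fold enrichment, and the −log10 of p and q. Pileup and the RPKM values of the H3K4me3 table were not used, and that table served only for the positions of its rows.

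Regions were classed by overlap of at least 1 bp (Python 3.11.15, numpy 2.4.6, pandas 2.3.3). Where several H3K27me3 rows overlapped a region, the one of largest overlap gave its level. Levels were compared as medians of log2(RPKM + 1), where the pseudocount of 1 understates changes of low regions. Exact sign-flip and permutation tests (scipy 1.17.1) used treatments as units. For each library the 20000 peaks of highest −log10 p were called strong, because the lists hold 156575 to 684051 H3K27me3 and 191181 to 523278 ATAC peaks at their weak threshold. Coordinates are those of the tables (mm9, counted from 1). Named regions were the 5 highest by mean ATAC and by mean H3K27me3 level, the 5 largest increases and decreases in C6FAE with listed peaks in both libraries of one condition and none of the other, and the 5 largest and smallest Forskolin differences (C6FAE, CFAE and 6FAE against C6AE, AE and Basal). No genome or annotation of mm9 was used here, so genes and sequences are not named. The members, splits and tests were chosen with earlier results of these data known. Alternatives covered the pseudocount, the scaling of columns, filters on level and length, the overlap rules, the peak threshold and each library or treatment left out. Functions were tested on simulated data. Confidence intervals for shares are Wilson intervals at 95%.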

Additional observations from a re-analysis of the deposited data

Results flagged for a closer look

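The regions were chosen by the rows of the H3K4me3 table and not directly by its peak lists. Starts of its 12183 autosomal rows matched peak starts of the H3K4me3 libraries, from 539 in C6FAE to 3169 in CFAE. The lists are therefore not independent of the choice. Enriched H3K4me3 peaks were still listed at some of the regions in all 7 libraries. The libraries list 21474 to 53155 such peaks, against 12566 rows of the table, and regions in neither table had them at 4.18% to 12.3%. The shares of the 1862 regions were 30.2% in CFAE, 26.9% in Basal, 26.1% in AE, 23.1% in C6AE, 16.7% in 6FAE and 15.6% in C6FAE, and 22.0% in the H3K4me3 library with a control title, which belongs to no group. The H3K27me3 library with a control title, also outside the comparisons, had an enriched H3K27me3 peak at 14.9% of the regions, between the libraries with Forskolin and those without it.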

How the results depend on the processing

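Of 127 alternative values, 105 kept their side of the threshold or stayed within the error of the reported value, 21 moved, 1 lost its call and 0 called values turned. The 105 include 17 ATAC and 18 H3K27me3 alternatives of the Forskolin comparisons. Their smallest possible p is above 0.05, so they could not change side. For the 2-fold shares and the median change the error was an interval over regions, which are not independent replicates. For strong peaks it was an SD of 5.01 points from 2 differences. The 105 are therefore no measure of robustness. The difference of ATAC level from regions in neither table lost its call without the 25% of regions of lowest mean RPKM (-0.06, adjusted exact p = 0.172), a filter that left 1021 of the 1862 regions, and ranged from -0.31 to -0.06 over its alternatives with adjusted p between 0.0156 and 0.172. The share at least 2-fold higher in C6FAE than Control was 31.4% with a pseudocount of 0.1, 5.91% with a pseudocount of 10, 10.6% with columns centred on their medians, 9.67% after quantile normalization, 14.8% with columns centred on the top 10% of regions and 46.2% at 1.5-fold. The share at least 2-fold lower was 0.644% with a pseudocount of 10, 13.9% and 11.8% with median centring and quantile normalization, 10.5% with centring on the top 10%, 1.96% with that filter, 2.06% for regions of 1000 to 2000 bp and 11.0% at 1.5-fold. In the same order the shares over all regions were 27.8%, 7.14%, 10.3%, 9.38%, 13.8% and 44.8% higher, and 1.03%, 11.2%, 9.31%, 8.44%, 2.62%, 3.63% and 8.76% lower, so the class was below the background in both directions with a pseudocount of 10, and in losses also under the filters on level and length. The median change minus that of all regions was -0.03 with a pseudocount of 10, -0.05 after quantile normalization and 0.11 with that filter. In the 870 regions with the strict marks, an alternative chosen after seeing the data, the 3 values were 24.7%, 7.47% and -0.13. The cause of these moves was not tested. Leaving out 1 library moved the 9.13-point difference in strong peaks to between 4.00 and 14.3 points, and leaving out 1 treatment gave Forskolin differences of -0.04 to 0.07 for ATAC and -0.75 to -0.57 for H3K27me3, where the smallest possible exact permutation p is 0.200. The H3K27me3 difference of -0.65 was -0.09 with columns centred on their medians and -0.17 after quantile normalization, and the ATAC difference relative to all regions ranged from -0.10 to 0.08 over its alternatives. With the replicate block the difference in strong peaks stayed at 9.13 points by construction. Deviations of the same replicate number had r = 0.03 between C6FAE and Control across 35931 regions. Over all pairs of treatments r ran from -0.15 (6FAE and C6AE) to 0.06 (6FAE and CFAE). The numbers thus gave no sign of pairing, but low correlations of peak enrichment cannot exclude a shared culture or batch. Each H3K27me3 value rests on 1 library.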
